A study of Homo sapiens with 6 samples.

Results

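The mitochondrial ribosomal protein genes are the nuclear genes whose symbols run from MRPL1 to MRPL58 and from MRPS2 to MRPS35 on the arrays used here. Within this family, members were set by symbol alone: MRPL or MRPS, a number and, for 3 MRPS18 paralogues, a closing letter A, B or C. The members were chosen with earlier results of these data known. Each gene was read from 1 probe, the one with the highest mean over the 6 arrays among probes detected on at least 2 of them (detection p below 0.05). All 76 genes with such a symbol had a probe that passed, and all 76 were detected on all 6 arrays. They make up 76 of the 13022 genes tested, with 48 genes of the large subunit (MRPL) and 28 of the small subunit (MRPS).

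The mitochondrial ribosome translates the few proteins encoded by mitochondrial DNA, which are core subunits of the respiratory chain and of ATP synthase. Its small subunit decodes the messenger RNA and its large subunit forms the peptide bond. All of its proteins are encoded in the nucleus, translated in the cytosol and imported, and they belong either to families shared with the bacterial ribosome or to families found only in mitochondria.

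Total RNA of human breast cancer cell lines, grown in DMEM with serum, was hybridised as biotinylated cRNA to Illumina bead arrays. MDA-MB-231, a mesenchymal-like line without hormone receptors, contributed 2 arrays labelled SETDB1 knock-down with hairpin shRNA-1 and 2 arrays labelled control. MDA-MB-453, a luminal-like line with androgen receptor, contributed 1 array labelled SETDB1 knock-down with hairpin shRNA-3 and 1 labelled control, so that line and hairpin changed together. All 6 arrays carry the same batch label, and nothing in the labels says that replicates were separate cultures or that a line was a single clone, so p-values rest on array-to-array spread that may be no more than technical.

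SETDB1, the histone H3 methyltransferase targeted by the hairpins, read 7.28 and 7.20 on the MDA-MB-231 arrays labelled knockdown, against 7.39 and 7.41 on the control arrays. The difference of -0.16 ± 0.16 (SE) missed the threshold (limma, adjusted p = 0.493), and in MDA-MB-453 SETDB1 read 8.72 on the array labelled knockdown, against 8.97 on the control array. Directions below therefore refer to arrays as labelled. Between 19230 and 21238 of 48107 probes were detected per array. VIM, AXL and CAV1, markers of the mesenchymal line, were high on all 4 MDA-MB-231 arrays. KRT19 and SPDEF, markers of the luminal line, were higher by 4.48 and 4.91 on the MDA-MB-231 arrays labelled knockdown than on the controls, while FOXA1, another luminal marker, was lower there by a difference of -3.77 and ERBB2 and RAB25 stayed far below their MDA-MB-453 levels. These marker differences ran with the same arrays as every difference given below for MDA-MB-231, and their part in those differences was not tested. Each array measured the RNA of a whole culture, so fewer cells of a type and less RNA per cell cannot be told apart.

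In MDA-MB-231, mitochondrial ribosomal protein genes fell more often than they rose. Among the 76 genes 26 fell, which is 34.2%, and 6 rose, which is 7.89% (limma, adjusted p below 0.05). Over all genes tested 19.7% fell and 19.5% rose. A total of 9 members fell by 2-fold or more, against a background of 7.69%, while the largest rise was 0.83 on the log2 scale, so that 0 members rose by 2-fold against a background of 8.98%. The median log2 difference of the 76 genes was -0.24, against -0.01 over all genes. It was below 0 for 55 of the 76 genes, which is 72.4%, against 50.5% of all genes.

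Lower levels also showed on the arrays themselves. A median of levels is another measure than the median of gene-wise differences, and its drop need not have the same size. The median level of the 76 genes was 9.61 and 9.63 on the arrays labelled knockdown, against 10.30 and 9.98 on control replicates 1 and 2, where the median over all genes was 7.26 on both arrays labelled knockdown, against 7.21 on both control arrays. For 40 genes both arrays labelled knockdown lay below both controls, for 12 both lay above, and for 24 the groups overlapped. Over all genes tested, 34.8% lay below and 34.1% lay above. Control replicate 1 carried higher levels of these genes than control replicate 2, and the counts depended on which control was used: without control replicate 1, 12 genes fell and 4 rose, and without control replicate 2, 17 fell and 0 rose. Calls also became fewer over all genes in these fits. Without control replicate 1 15.8% of members and 12.3% of all genes fell, while 5.26% and 13.1% rose. Without control replicate 2 22.4% of members and 10.5% of all genes fell, while 11.7% of all genes rose. Without replicate 1 of the arrays labelled knockdown 24 members fell and 2 rose, against 18.3% and 18.1% of all genes. Scaling each array by its median in place of quantile normalisation gave 32 that fell and 3 that rose, against 22.4% and 16.8% of all genes. These genes are well expressed, so they were also set beside the 2061 genes with a mean level between 9.07 and 10.8, the middle range of the members. This range was chosen after the data were seen. Among those genes 22.5% fell and 22.5% rose, with a median difference of -0.02.

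**Figure D1:**
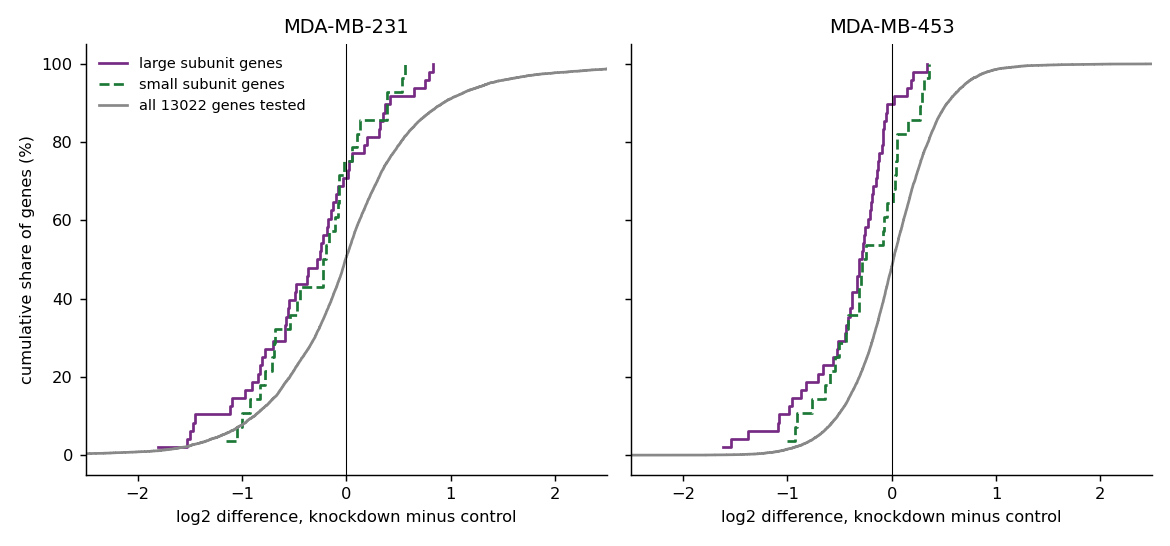
Cumulative share of genes (%) against the log2 difference, labelled knockdown minus control, for the 48 large-subunit genes, the 28 small-subunit genes and all 13022 genes tested. Both subunits lie left of all genes in MDA-MB-231 (medians -0.27 and -0.21, against -0.01) and, with quantile normalisation, in MDA-MB-453 (medians -0.30 and -0.27, against 0.02; with median scaling these become 0.02 and 0.08, against 0.26).

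Both subunits held genes that fell. In the large subunit 17 of 48 genes fell and 4 rose, with a median difference of -0.27 and 34 genes below 0. In the small subunit 9 of 28 fell and 2 rose, with a median of -0.21 and 21 below 0. The shares that fell were 35.4% and 32.1%, against 19.7% of all genes tested. Of all genes tested 19.5% rose and 50.5% were below 0. Between replicates, the median level per array gave an SD, combined over both arms, of 0.11 for the large subunit and 0.22 for the small subunit. These SDs belong to median levels and do not measure the spread of the median differences. With 1 array left out, the median difference ran from -0.41 to -0.22 in the large subunit. In the small subunit it ran from -0.31 to -0.17. The products of MRPS30 and MRPS18A sit in the large subunit of the human ribosome despite their names. With those counted by place, the large subunit had 18 of 50 genes that fell and 4 that rose. MRPS36, whose product also belongs to a dehydrogenase complex, is not among the 76.

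**Figure D2:**
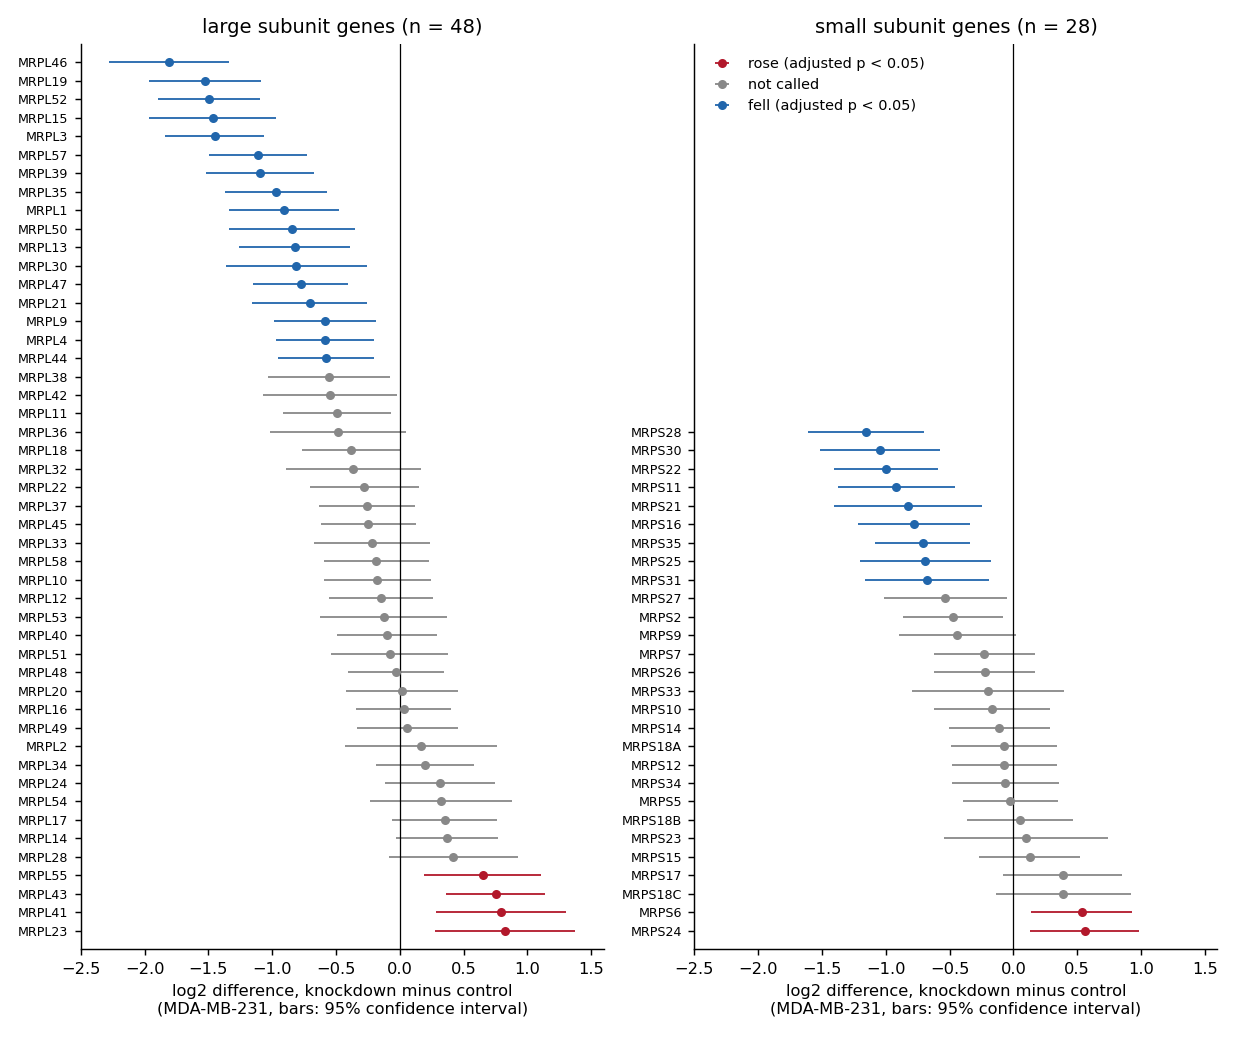
Log2 difference, labelled knockdown minus control, of each of the 76 genes in MDA-MB-231, with 95% confidence intervals from limma (2 arrays per group), large subunit left and small subunit right. The 26 genes that fell run down to -1.81 (MRPL46) and the 6 that rose reach 0.83 (MRPL23).

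The 5 largest falls were all of large-subunit genes. MRPL46, which codes for a protein with no bacterial counterpart, read 8.56 and 8.99 on the arrays labelled knockdown, against 10.73 and 10.44 on the control arrays. The groups were far apart, and the gene was 3.50-fold lower (log2 difference -1.81 ± 0.21 SE, adjusted p = 0.000275). MRPL19, of a family shared with bacteria, read 8.43 and 8.83 on the arrays labelled knockdown, against 10.09 and 10.21 on the controls, a difference of -1.53 ± 0.19 (adjusted p = 0.000447). MRPL52, another mitochondria-specific protein gene, read 8.71 and 8.70 on the arrays labelled knockdown, against 10.33 and 10.07 on the controls, a difference of -1.50 ± 0.18 (adjusted p = 0.000313). For each of these genes the lower control still exceeded the higher array labelled knockdown by more than the gap between any pair of replicates.

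MRPL15 and MRPL3 belong to families shared with bacteria, and the protein of MRPL3 reaches towards the peptidyl transferase centre. MRPL15 read 8.72 and 9.31 on the arrays labelled knockdown, against 10.55 and 10.41 on the controls, with the widest gap between labelled-knockdown replicates among these 5 genes and a difference of -1.47 ± 0.22 (adjusted p = 0.00108). MRPL3 read 10.51 and 10.60 on the arrays labelled knockdown, against 11.92 and 12.10 on the controls, a difference of -1.45 ± 0.17 (adjusted p = 0.000313). Below these came MRPL57, MRPL39 and MRPL35. MRPL57 read 7.15 and 6.98 on the arrays labelled knockdown, against 8.15 and 8.20 on the controls (difference -1.11 ± 0.17, adjusted p = 0.00119). MRPL39, whose protein resembles part of a tRNA synthetase, read 9.46 and 9.09 on the arrays labelled knockdown, against 10.37 and 10.38 on the controls (-1.10 ± 0.19, adjusted p = 0.00201). MRPL35 read 10.26 and 10.23 on the arrays labelled knockdown, against 11.35 and 11.08 on the controls (-0.97 ± 0.18, adjusted p = 0.00283). None of these groups overlapped.

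Among genes named for the small subunit, MRPS28 fell most. It read 8.66 and 9.04 on the arrays labelled knockdown, against 10.15 and 9.86 on the controls, and was 2.23-fold lower (difference -1.16 ± 0.20, adjusted p = 0.00218). MRPS30, the gene of a large-subunit protein by place, read 9.94 and 10.46 on the arrays labelled knockdown, against 11.20 and 11.29 on the controls (-1.05 ± 0.21, adjusted p = 0.00443). MRPS22, in which inherited mutations impair mitochondrial translation, read 10.31 and 10.03 on the arrays labelled knockdown, against 11.12 and 11.22 on the controls (-0.999 ± 0.18, adjusted p = 0.0027). MRPS11 belongs to a family that lines the platform of the small subunit. It read 9.77 and 9.71 on the arrays labelled knockdown, against 10.90 and 10.42 on the controls (-0.92 ± 0.20, adjusted p = 0.00705). Its arrays labelled knockdown had an SD of 0.04 and its controls one of 0.34 (n = 2 each), with control replicate 1 the higher. Without control replicate 1 the difference was -0.68 and missed the threshold.

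The 6 genes that rose did so by less. MRPL23, of the family found at the peptide exit tunnel, read 10.59 and 10.21 on the arrays labelled knockdown, against 9.88 and 9.26 on the controls (0.83 ± 0.24, adjusted p = 0.0247). MRPL41 read 10.72 and 10.30 on the arrays labelled knockdown, against 9.96 and 9.47 on the controls (0.79 ± 0.22, adjusted p = 0.0223). MRPL43 read 11.26 and 11.21 on the arrays labelled knockdown, against 10.58 and 10.39 on the controls (0.75 ± 0.17, adjusted p = 0.00816). In all 3 the groups were apart, but for MRPL23 and MRPL41 by less than the distance between the control arrays.

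MRPL55 read 9.11 and 8.88 on the arrays labelled knockdown, against 8.56 and 8.13 on the controls (0.65 ± 0.20, adjusted p = 0.0325). The small-subunit genes MRPS24 and MRPS6, both of families shared with bacteria, rose by 0.56 ± 0.19 (adjusted p = 0.0432) and 0.53 ± 0.17 (adjusted p = 0.0378). MRPS24 read 11.78 and 11.62 on the arrays labelled knockdown, against 11.31 and 10.97 on the controls. MRPS6 read 12.38 and 12.62 on the arrays labelled knockdown, against 11.98 and 11.96 on the controls. Each of the 6 calls was lost without control replicate 2, with differences of 0.39 for MRPS24, 0.43 for MRPL55, 0.52 for MRPL23, 0.53 for MRPS6, 0.55 for MRPL41 and 0.66 for MRPL43.

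**Figure D3:**
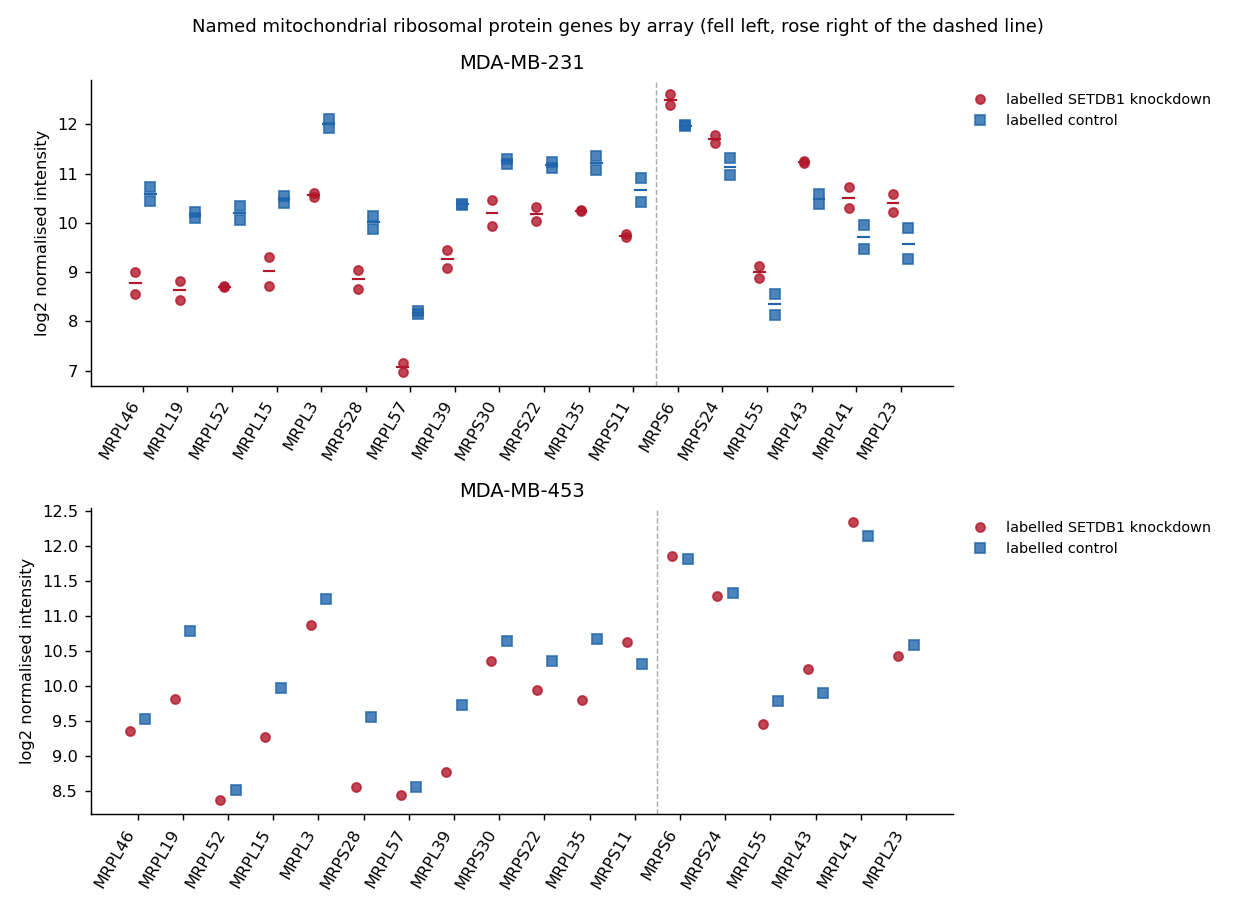
Log2 normalised intensity of the 12 genes that fell most and the 6 that rose in MDA-MB-231, by array, in MDA-MB-231 (top; points are arrays, short lines the means of 2) and in MDA-MB-453 (bottom; 1 array per arm). In MDA-MB-231 no gene has overlapping groups, and in MDA-MB-453 MRPS11, which fell in MDA-MB-231, is higher on the array labelled knockdown, 10.62 against 10.31.

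The other 14 genes that fell lay between -0.91 and -0.58. In the large subunit they were MRPL1, the gene of the stalk protein next to the exit site for tRNA, and MRPL50, MRPL13, MRPL30, MRPL47, MRPL21, MRPL9, MRPL4 and MRPL44. In the small subunit they were MRPS21, MRPS16, MRPS35, MRPS25 and MRPS31. MRPS21 had the most scattered controls among them, 10.73 and 9.93, against 9.45 and 9.57 on the arrays labelled knockdown (-0.83 ± 0.26, adjusted p = 0.0318). The remaining 44 genes missed the threshold in either direction, with differences between -0.55 (MRPL38) and 0.42 (MRPL28). Among them were MRPL12, whose protein binds the mitochondrial RNA polymerase, at -0.15 (95% interval -0.56 to 0.26), and MRPL58, whose protein is a peptidyl-tRNA hydrolase, at -0.18 (95% interval -0.59 to 0.23). MRPS18A stood at -0.07 with overlapping groups.

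Genes of families shared with bacteria and genes of mitochondria-specific families both held more members that fell than rose. Families were assigned from general knowledge of ribosome structure and were not checked against sequences. Of 47 genes assigned bacterial counterparts 15 fell (31.9%, against 19.7% of all genes) and 4 rose, with a median of -0.22. Those that rose include MRPL55, which may belong with the mitochondria-specific genes instead, so the counts of both families are approximate. Of 29 mitochondria-specific genes 11 fell (37.9%) and 2 rose, with a median of -0.26. The 10 mitochondria-specific genes named for the small subunit stood lowest: 5 fell, 0 rose and 9 were below 0, with a median of -0.61. The 18 small-subunit genes with bacterial counterparts had 4 that fell and 2 that rose, with a median of -0.09. Their share that fell, 22.2%, was near that of all genes. The difference between these groups of genes was not tested.

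For 24 members more than 1 probe passed, and these probes were fitted together with all 17668 named probes that passed. No member had probes called in opposite directions, and in MDA-MB-231 MRPS18B alone had probes of opposite sign (0.05 and -0.24, neither called). In MDA-MB-453 the probes of 5 members differed in sign: MRPL35, MRPL43, MRPL45, MRPL55 and MRPL57. There MRPL35 stood at -0.87 on the probe used and at 0.42 and 0.21 on the others. MRPL43 rose on the probe used here but stood at 0.09 on each of its other 2 probes, and MRPL55 stood at 0.06 and 0.49 on its other 2, none of which passed. MRPS12 did not pass on its brightest probe, at -0.07, but another of its 4 probes fell, at -1.11 (adjusted p = 0.00223). A further probe also fell for MRPL18, at -0.58, and MRPL42, at -0.94, while 1 of 2 tested probes of MRPL4 missed the threshold. The 3 probes of MRPL35 all fell, at -0.97, -1.40 and -1.17. Processed pseudogenes are known for many genes of this family, and where the probes bind was not analysed here.

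The promoters of the members were searched for 4 short motifs. RefSeq windows (GRCh38.p14) from 250 bases before to 50 after the transcription start were found for 68 of the 76 genes and for 10357 of the 13022 genes tested, and both strands were read. CCGGAAG, of the ETS family, was held by 41.2% of the members' promoters, against 18.2% of those of all genes tested and 10.7% of all 27305 promoters. AAGATGG, the YY1 motif, was held by 33.8%, against 7.44% and 6.06%. TGCGCA, a core of the NRF1 site, was held by 20.6%, against 13.2% and 8.42%, and CACGTG, an E-box, by 8.82%, against 10.0% and 7.43%. The ETS and YY1 motifs can share the letters AAG. At least 1 motif was found in 72.1% of members, against 39.5% of genes tested. Among the 21 members that fell and had a window, 38.1% held the ETS motif and 28.6% the YY1 motif, and among the 42 not called 45.2% and 38.1%. The NRF1 core was in 9.52% of those that fell and 26.2% of those not called. The E-box was in 0 of 21 promoters of genes that fell and in 14.3% of those not called. A match is a run of letters and no measure of binding.

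The following 250 bases before the start are shown because their genes moved most in each direction among those with a motif in these bases, with each motif in capitals. MRPL52 (chr14:22829637-22829886, plus strand) has the YY1 letters at 98 and 64 bases before the start, and MRPL3 (chr3:131502972-131503221, minus strand) has the ETS letters at 32. MRPL43 (chr10:100987498-100987747, minus strand) has the ETS letters at 18, and MRPS6 (chr21:34073328-34073577, plus strand) has the NRF1 core at 48. MRPS11 (chr15:88467458-88467707, plus strand) holds none of the motifs and is shown, by a choice made after its values were seen, because it lies in the 320 bases between the starts of MRPS11 and MRPL46, which are transcribed away from each other and both fell.
MRPL52: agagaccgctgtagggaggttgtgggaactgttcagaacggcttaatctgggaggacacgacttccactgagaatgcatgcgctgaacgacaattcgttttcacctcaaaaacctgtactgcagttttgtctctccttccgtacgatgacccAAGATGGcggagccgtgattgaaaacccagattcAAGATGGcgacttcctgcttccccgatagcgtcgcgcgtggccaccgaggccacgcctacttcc
MRPL3: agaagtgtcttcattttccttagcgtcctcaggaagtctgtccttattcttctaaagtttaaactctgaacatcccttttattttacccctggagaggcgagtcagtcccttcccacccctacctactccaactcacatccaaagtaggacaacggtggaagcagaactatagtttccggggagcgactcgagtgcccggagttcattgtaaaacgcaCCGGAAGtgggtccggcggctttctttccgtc
MRPL43: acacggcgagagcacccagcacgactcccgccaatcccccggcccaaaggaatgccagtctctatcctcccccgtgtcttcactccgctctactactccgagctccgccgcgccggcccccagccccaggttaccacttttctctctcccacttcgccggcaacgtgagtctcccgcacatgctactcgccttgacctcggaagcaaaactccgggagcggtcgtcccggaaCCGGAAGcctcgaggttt
MRPS6: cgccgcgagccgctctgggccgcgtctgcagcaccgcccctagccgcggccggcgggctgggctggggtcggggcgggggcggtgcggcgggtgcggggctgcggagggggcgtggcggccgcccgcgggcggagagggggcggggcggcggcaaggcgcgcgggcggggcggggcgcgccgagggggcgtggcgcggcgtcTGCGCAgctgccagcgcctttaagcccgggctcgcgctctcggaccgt
MRPS11: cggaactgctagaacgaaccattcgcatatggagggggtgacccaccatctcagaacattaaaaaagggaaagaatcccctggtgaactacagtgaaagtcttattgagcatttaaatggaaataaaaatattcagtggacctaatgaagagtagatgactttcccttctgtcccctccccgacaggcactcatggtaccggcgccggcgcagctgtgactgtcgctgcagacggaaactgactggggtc

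Such head-to-head pairs, with starts up to 1000 bases apart and both genes tested, were found for 17 of 68 members, which is 25%, against 11.6% of all genes tested. This count was added after the data were seen. The partner fell for 6 of the 17, against 21.7% of partners over all genes tested, and rose for 2, against 14.6%. The member fell in 5 of the 17, and in 3 of those the partner fell too, against 35.2% over all genes tested that fell. These 3 were MRPL46 and MRPS11, each counted as the other's partner, and MRPL57, whose start lies 106 bases from that of SKA3, a kinetochore gene that fell (-1.50). PTCD2, TCP1 and PSMA2 fell beside MRPS27, MRPL18 and MRPL32, which were not called, and HELQ and PIERCE1 rose beside MRPS18C and MRPS2, which were not called either. In MDA-MB-453 MRPL46 and MRPS11 stood at -0.17 and 0.31.

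In MDA-MB-453, with 1 array per arm and no test, levels were also lower on the array labelled knockdown, as far as quantile normalisation shows. The median level of the 76 genes was 10.07 on the array labelled knockdown, against 10.41 on the control array. Their median difference was -0.28, against 0.02 over all genes, and 61 of the 76 were below 0, against 48% of all genes. With each array scaled by its median this direction flipped: the large subunit was at 0.02, the small subunit at 0.08 and all genes at 0.26, so that the subunits stood at -0.24 and -0.18 relative to all genes, and 32 of the 76 genes were below 0. Among the 2061 genes of like level the median was 0.01, with 48.9% below 0. With quantile normalisation 22 members were lower by 0.5 or more on the log2 scale, against a background of 10.7%, and 0 were higher by as much, against 11.4%. A total of 6 were lower by 2-fold or more, against 1.55%, and 0 were higher by 2-fold, against 1.5%.

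The 48 large-subunit genes had a median difference of -0.30 in MDA-MB-453, with 43 below 0. The 28 small-subunit genes had one of -0.27, with 18 below 0. Over all genes the median was 0.02, with 48% below 0. Both subunit medians turned positive with median scaling as given above. MRPL47, of a family shared with bacteria, stood lowest. It read 8.21 on the array labelled knockdown, against 9.83 on the control array (-1.62). MRPL42 read 8.12 on the array labelled knockdown, against 9.66 on the control (-1.54), and MRPL50 read 8.17, against 9.55 (-1.38). MRPL13, MRPL1 and MRPS28 stood at -1.09, -1.08 and -1.002, so that 5 of the 6 lowest were large-subunit genes. In MDA-MB-231 MRPL42 alone among these 6 had not passed the test on the probe used.

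The members that stood highest in MDA-MB-453 differed by less. MRPS10 read 9.82 on the array labelled knockdown, against 9.46 on the control (0.36). MRPL43 stood at 0.33, MRPS11 at 0.31, MRPS27, whose protein has RNA-binding repeats, at 0.29, MRPS35 at 0.28 and MRPL41 at 0.20. The other 2 probes of MRPL43 stood at -0.12 and -0.16 there. Of these genes, MRPL43 and MRPL41 had risen in MDA-MB-231, and MRPS11 and MRPS35 had fallen there.

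Set side by side, 45 of the 76 genes were below 0 in both lines, against 27.8% of all genes, and 5 were above 0 in both, against 29.3%. Taken alone, 55 were below 0 in MDA-MB-231 and 61 in MDA-MB-453, and agreement between lines beyond these counts was not tested. These counts rest on quantile normalisation, and with median scaling 32 of the 76 were below 0 in MDA-MB-453. Over all genes tested, 1595 of the 2569 that fell in MDA-MB-231 were below 0 in MDA-MB-453. Among the 76 members, called or not, 61 were below 0 there. Of the 26 members that fell in MDA-MB-231, 21 were below 0 in MDA-MB-453, a share like that of all members, and 5 above. These 5, MRPL21, MRPS11, MRPS16, MRPS31 and MRPS35, hold 4 small-subunit genes and lie between 0.01 and 0.31. They were picked out after their values were seen. Of the 6 that rose, 3 were above 0, against 1594 of the 2539 that rose over all genes tested. MRPS28 was the 1 gene that fell and was 2-fold lower in both lines, against a background of 0.376%. Across the 76 genes the differences in the lines correlated with r = 0.31, with 0.45 over the 48 large-subunit and -0.05 over the 28 small-subunit genes. This is a description across genes that share arrays and are not independent.

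**Figure D4:**
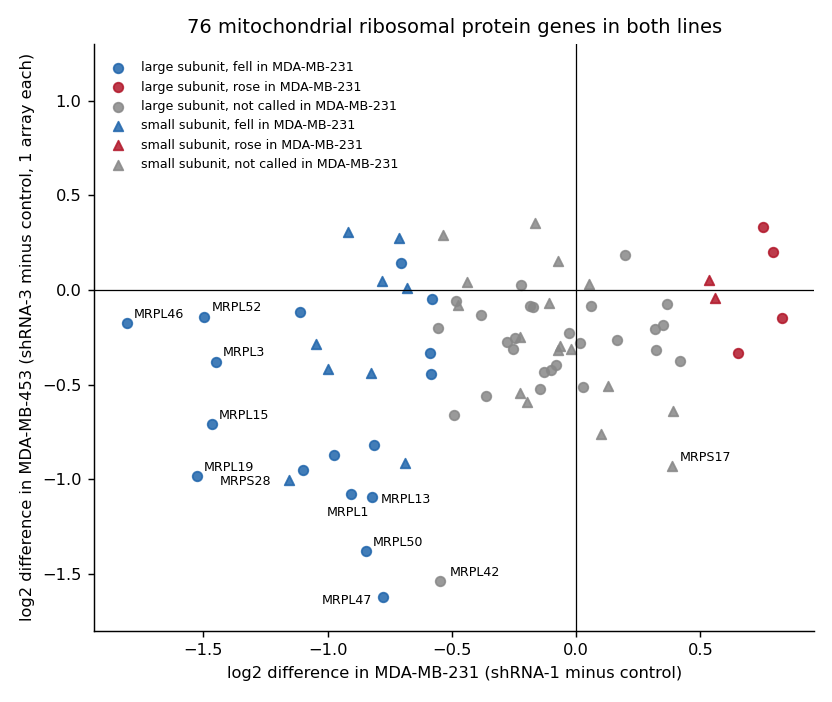
Log2 difference, labelled knockdown minus control, of the 76 genes in MDA-MB-231 (horizontal) and MDA-MB-453 (vertical, 1 array per arm, quantile normalisation), coloured by the call in MDA-MB-231. Most genes lie at the lower left (45 of 76), while with median scaling 32 of the 76 lie below 0 on the vertical axis.

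The difference between the effects in the lines was tested with the assumption that the single MDA-MB-453 arrays vary like the MDA-MB-231 replicates. It passed for 4 members. The effect was lower in MDA-MB-231 for 3 of the 76 genes, against 6.28% of all genes, and higher for 1, against 7.31%. Both are smaller shares than over all genes. For MRPL46 the effect in MDA-MB-231 minus that in MDA-MB-453 was -1.63 ± 0.36 (SE, adjusted p = 0.0201). The gene read 9.35 on the MDA-MB-453 array labelled knockdown, against 9.52 on its control. MRPL52, which read 8.36 on the MDA-MB-453 array labelled knockdown, against 8.51 on its control, gave -1.36 ± 0.30 (adjusted p = 0.0219). MRPL3, which read 10.86 on the MDA-MB-453 array labelled knockdown, against 11.24 on its control, gave -1.07 ± 0.29 (adjusted p = 0.0453). In MDA-MB-453 these 3 genes thus had small differences of -0.17, -0.14 and -0.38.

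MRPS17, of a family that binds small-subunit ribosomal RNA, had the higher effect, 1.32 ± 0.35 (adjusted p = 0.0415). It read 10.73 and 10.47 on the MDA-MB-231 arrays labelled knockdown, against 10.43 and 9.99 on the controls, and 9.64 on the MDA-MB-453 array labelled knockdown, against 10.57 on its control. Its difference of 0.39 in MDA-MB-231 did not pass. Without control replicate 1 none of the 4 passed (adjusted p from 0.0547 for MRPS17 to 0.0992 for MRPL3), and without control replicate 2 none passed either (0.052 for MRPL46 to 0.162 for MRPL3). MRPL3 also missed it with the replicate number as a block (adjusted p = 0.06). With median scaling MRPS17 missed the threshold (0.84, adjusted p = 0.115), 14 members had a lower effect, against 16% of all genes, and 0 a higher one, against 5.28%.

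The control arrays of the lines were also compared, by a comparison added after the data were seen. Of the 76 members, 3 were at least 2-fold higher in MDA-MB-231 controls than in the MDA-MB-453 control, against 17.5% of all genes. At least 2-fold lower were 13, against 17.9%. The share of members was thus below that of all genes for the higher ones and near it for the lower ones. The higher ones were MRPL52 (1.69), MRPS10 (1.68) and MRPL46 (1.06). MRPL41 (-2.42), MRPL58 (-2.39) and MRPS7 (-2.02), the last of a family that binds the head of the small subunit, stood lowest. The median over the 76 genes was -0.16.

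To see how each chromosomal region behaved, each member was set beside the median of the genes 6 to 25 places away from it on either side. Across the 76 members the own difference and the neighbours' median correlated with r = 0.53 (Spearman's rho 0.48), a description over genes that share arrays. All 26 genes that fell were below their neighbours, and all 6 that rose were above theirs, as their choice by size favours. For the 26 that fell the neighbours' median was itself below 0 in 20 cases, with a middle value of -0.19. The genes that rose had neighbours with a middle value of 0.23. With the neighbours' median taken off, the large subunit stood at -0.38 and the small subunit at -0.30. For MRPL46 the neighbours' median was -0.44 beside its own -1.81, and for MRPL52 it was -0.10 beside -1.50. The part of these regional differences in the result was not tested beyond these values.

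Among chromosomes with at least 2 members, those on chromosomes 3 (4 of 4), 8 (3 of 3), 13 (2 of 2) and 15 (2 of 2) all fell. Of all genes tested on these chromosomes 24.8%, 31%, 48.7% and 28.1% fell, in that order. None fell on chromosomes 6 (0 of 6), 7 (0 of 4), 16 (0 of 2) and 17 (0 of 7), where 20.6%, 7.34%, 17.9% and 15% of all genes did. On chromosome 3 MRPL3, MRPS22, MRPL47 and MRPS25 had a median of -0.89, against -0.13 for the 750 genes tested there. On chromosome 13 MRPL57 and MRPS31 stood at a median of -0.89, against -0.52 for 228 genes. On chromosome 8 MRPL15, MRPS28 and MRPL13 had a median of -1.16, against -0.12 for 474 genes. The same 3 genes had a median of -1.002 in MDA-MB-453, where the chromosome stood at -0.04 (both with quantile normalisation).

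**Figure D5:**
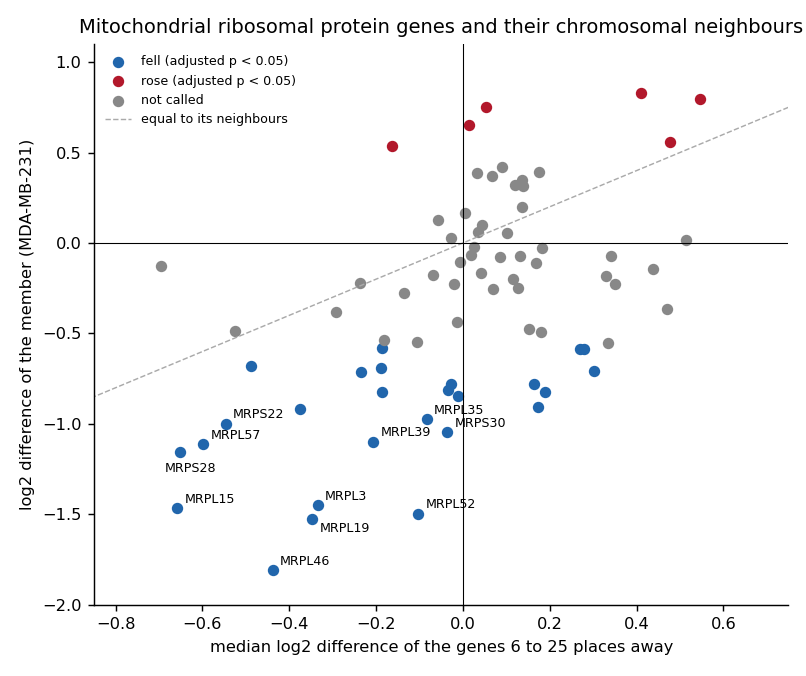
Log2 difference of each of the 76 genes in MDA-MB-231 against the median difference of the genes 6 to 25 places away on the chromosome; the dashed line marks equality. The 26 genes that fell all lie below the line, from neighbours' medians of -0.66 (MRPL15) to 0.30 (MRPL21).

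Other genes listed around mitochondrial translation were lower too in MDA-MB-231. A list of 86 genes covered the remaining ribosomal proteins, translation factors, assembly, mitochondrial RNA synthesis and processing with some DNA replication genes, and mitochondrial aminoacyl-tRNA synthesis. Of these genes 80 were measured, of which 36 fell and 1 rose, against the 19.7% and 19.5% of all genes given above. Their median difference was -0.51. Without control replicate 1 the count that fell was 22, where 12.3% of all genes fell, and without control replicate 2 it was 20, where 10.5% of all genes fell. The list of mitochondrial RNA synthesis and processing had 13 of 22 that fell and a median of -0.64. It also holds TWNK, which fell, and POLG and POLG2, which were not called, all genes of mitochondrial DNA replication. Translation factors had 6 of 13 (-0.50), aminoacyl-tRNA synthetases 5 of 16 (-0.42), assembly factors 11 of 25 with 1 that rose (-0.29), and the remaining ribosomal proteins 1 of 4 (-0.09). In MDA-MB-453 the 80 genes had a median of -0.10.

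TFAM, which packages mitochondrial DNA and starts its transcription, had the largest fall of these. It read 9.16 and 9.40 on the arrays labelled knockdown, against 11.48 and 11.72 on the controls (-2.32 ± 0.18, adjusted p = 3.5e-05). MARS2, the mitochondrial methionyl-tRNA synthetase, read 6.75 and 6.86 on the arrays labelled knockdown, against 8.96 and 9.09 on the controls (-2.22 ± 0.17, adjusted p = 2.8e-05). FASTKD3, an RNA-binding protein of mitochondria, had a difference of -1.77, MTPAP, the mitochondrial poly(A) polymerase, one of -1.70, and CARS2, the mitochondrial cysteinyl-tRNA synthetase, one of -1.35, and all 3 fell. MTG1, a GTPase of large-subunit assembly, also fell, with a difference of -1.35. NOA1, a GTPase linked to small-subunit assembly, rose by 0.55 ± 0.17 (adjusted p = 0.0331). DAP3, a small-subunit protein that carries no MRPS symbol, stood at -0.53 in MDA-MB-231 (adjusted p = 0.032) and 0.79 in MDA-MB-453. It is named after its values were seen.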

How the data were processed

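The authors deposited non-normalized probe intensity values and, per the file headers, a detection p-value for each, taken here as the column right of its intensity. Their deposited log2 values equal quantile-normalized log2 intensities to within 5.26e-09. GEO's platform annotation gave the gene names (30113 with 1 symbol, 8 with several, 17986 with none). With limma 3.58.1 in R 4.3.3, intensities were corrected by normexp (offset 16), quantile-normalized and put on a log2 scale. Differences were tested with lmFit and eBayes on 4 group means (2 residual and 6.54 prior degrees of freedom, two-sided, Benjamini-Hochberg over 13022 genes, threshold 0.05). An exact permutation test of 2 against 2 arrays cannot go below p = 0.333. The number of arrays limits the precision. The script was tested on simulated data. The members and lists were chosen with earlier results of these data known. The scanner software is not stated in the labels or headers. Named genes are the 12 with the largest called difference in each direction, the 6 largest in MDA-MB-453, the 5 largest called differences between lines and the 6 largest in the other lists. Replicate numbers did not pair the arrays (correlation of deviations 0.0714). Alternatives were background correction, offset, scaling, detection filter, probe choice, deposited values, a replicate block and leaving out each array.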

Additional observations from a re-analysis of the deposited data

Results flagged for a closer look

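For 4 genes the effect of the labelled knockdown differed between the lines by the test of the difference itself (limma, effect in MDA-MB-231 minus effect in MDA-MB-453). The difference was -1.63 for MRPL46 (adjusted p = 0.0201), -1.36 for MRPL52 (0.0219), -1.07 for MRPL3 (0.0453) and 1.32 for MRPS17 (0.0415). These are 3 of 76 genes with a lower effect, against 6.28% of all genes, and 1 with a higher effect, against 7.31%. Both are smaller shares than over all genes. The test rests on 1 MDA-MB-453 array per arm, none of the 4 passed without control replicate 1 or without control replicate 2, and MRPL3 missed the threshold with the replicate block (0.06). Line and hairpin changed together, so the part of each cannot be told apart.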

How the results depend on the processing

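Of the 76 genes, between 22 and 32 fell under the alternatives of processing and between 12 and 27 when 1 array was left out. Of the 26 genes that fell, 12 still fell without control replicate 1, 17 without control replicate 2 and 22 with no filter on detection. The count that rose was 3 with median scaling and 2 with no filter, and 0 to 5 with 1 array left out. The 12 largest falls kept direction and call under all alternatives, except MRPS11 without control replicate 1. With the replicate block 26 fell and 6 rose, 38 of the other translation genes fell and 1 rose, and the effect differed between lines for 1 gene upward and 2 downward, MRPL3 being lost. Genes with a lower effect in MDA-MB-231 than in MDA-MB-453 numbered 6 with no background correction, an offset of 50, the mean of all probes or the deposited values, 14 with median scaling, and 0 to 8 with 1 array left out. Those with a higher effect numbered 2 with no background correction, an offset of 50 or the deposited values, 0 with median scaling or no filter, and 0 to 4 with 1 array left out. Of the other translation genes 0 rose with median scaling, and with 1 array left out 0 to 3 rose and 20 to 35 fell. The large-subunit median in MDA-MB-231 was -0.41 with median scaling and -0.38 minus the neighbours' median, and -0.41 to -0.22 with 1 array left out. The small-subunit median there was -0.35 with median scaling and -0.31 to -0.17 with 1 array left out. In MDA-MB-453 median scaling turned the large-subunit median to 0.019 and the small-subunit median to 0.077, where all genes stood at 0.26. The cause of these changes was not tested. All members were detected on all arrays, but the size of a difference can move with the background step. MRPL57, at -1.11, stood at -0.97 when background was not corrected and at -0.94 when the offset was 50.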
